A study of Rattus norvegicus with 11 samples.

Results

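Muscarinic and nicotinic acetylcholine receptors were examined in rat medial prefrontal cortex after heroin self-administration and abstinence. The genes were the 5 muscarinic receptors (Chrm1 to Chrm5), the nicotinic alpha subunits Chrna3, Chrna4, Chrna5 and Chrna7, and the nicotinic beta subunit Chrnb2. They were taken as every non-control probe that carries 1 of these 10 names, which gave 14 of the 41012 different probes on the array. Chrm1 and Chrm4 had 2 probes each, Chrna7 had 3, and the others had 1. No further probe could be assigned to these genes through an accession. All non-control probes together carry 35581 different names.

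RNA was measured on single-colour Agilent arrays, 1 array per rat, in male rats aged 4 months. In the heroin group (n = 6) the rats had licked a spout for intravenous heroin. In the control group (n = 5) each rat was yoked to a heroin rat and received saline infusions, and it shared the chambers, the 14 days of abstinence and the final extinction session in which no drug was given. Saline replicates were numbered 2 to 6 and heroin replicates 1 to 6. The cortex medial to the forceps minor was collected, so all of its cell types contributed RNA, and fewer cells of a type cannot be told apart from less RNA per cell.

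Acetylcholine reaches the medial prefrontal cortex mainly through axons from the basal forebrain, and it acts there on attention and on the response to cues. Muscarinic receptors couple to G proteins: M1, M3 and M5 act through Gq and phospholipase C, while M2 and M4 act through Gi and lower cyclic AMP. Nicotinic receptors are ion channels built of subunits. In the brain most of them join alpha4 with beta2, at times with alpha5 as an added subunit, or consist of alpha7 alone, and alpha3 usually pairs with beta4.

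Each probe is 60 nucleotides long. The probes for alpha3, alpha4 and beta2 are shown first because they lie on a stretch that the subunits share, and alpha3 and beta2 are the nicotinic genes with the lowest p. The sequences are written 5′ to 3′, and capitals mark the 13 bases that were the same in all 3 probes when they were aligned without gaps on the 6 bases they have in common.
Chrna3: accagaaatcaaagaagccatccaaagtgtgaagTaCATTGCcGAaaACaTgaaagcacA
Chrna4: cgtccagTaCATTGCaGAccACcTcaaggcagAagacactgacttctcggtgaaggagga
Chrnb2: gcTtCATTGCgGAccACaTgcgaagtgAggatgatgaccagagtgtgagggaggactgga
In this alignment Chrna4 and Chrnb2 had 32 of 55 bases in common, Chrna3 and Chrna4 had 23 of 33, and Chrna3 and Chrnb2 had 16 of 28. The longest unbroken stretch shared by any pair of receptor probes was 10 bases. By the array's own annotation on build rn3 the Chrna3 probe lies on the minus strand at chr8:58591650-58591709. The Chrnb2 probe spans 3715 bases at chr2:181912140-181915854 on the minus strand and the Chrna4 probe 3368 bases at chr3:170077612-170080979 on the minus strand, each more than the probe's own length. Which exon the probes lie in was not analysed here.

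The probes of Chrm4 and Chrna7 are shown because probes named for the same gene gave different signals. No base is in capitals here. Both Chrm4 probes lie on the plus strand of chromosome 3, the brighter at chr3:76206023-76206082 and the dimmer at chr3:76204545-76204604.
Chrm4, brighter probe: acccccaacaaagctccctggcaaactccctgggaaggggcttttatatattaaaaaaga
Chrm4, dimmer probe: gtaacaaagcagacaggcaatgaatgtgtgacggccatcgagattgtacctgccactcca
Chrna7, A_43_P16274, spotted 10 times: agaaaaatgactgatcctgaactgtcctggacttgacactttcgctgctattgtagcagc
Chrna7, A_43_P11579: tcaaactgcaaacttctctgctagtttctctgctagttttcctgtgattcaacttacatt
Chrna7, A_44_P288142: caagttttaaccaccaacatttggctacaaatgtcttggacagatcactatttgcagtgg
By the annotated positions, chr1:117665386-117665445 and chr1:117665410-117665469, both on the minus strand, A_43_P16274 and A_43_P11579 overlap by 36 bases. Their sequences share no stretch over 6 bases, so the annotated position of at least 1 of them does not match its sequence.

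A signal is given below in array medians, which means the background-corrected intensity divided by the array's median over all non-control probes. Signals of different probes cannot be compared as levels, because probes bind with different strength. A change is the mean log2 signal of the heroin rats minus that of the saline rats, with limma's standard error (SE) and two-sided p. The study called a gene changed where the unadjusted p was under 0.02 and the change was 1.4-fold or more, and these limits are used here as its thresholds. The study applied them to a test that did not assume equal variances, and here they are applied to limma's p. A gene that passes them here was therefore not necessarily called by the study. For each receptor gene an exact permutation test over every division of the 11 rats into 6 and 5 was added, whose smallest possible p is 0.00216.

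Over all 25555 tested probes, 694 passed the study's thresholds, or 2.72%, with 457 higher and 237 lower in heroin rats. The share with an unadjusted p under 0.05 was 18.5%. None passed an adjusted p of 0.05 (0%), where the smallest adjusted p was 0.263. The median signal before scaling was 42.7 to 78.3 on heroin arrays and 58.0 to 83.2 on saline arrays, lowest in heroin replicate 6. The median change of all tested probes was 0.18 after scaling to the 50th percentile, 0.01 after quantile normalization and -0.03 after scaling to the 75th percentile. Every heroin array was at position 4 of its slide and every saline array at position 3, so position and treatment cannot be told apart. Each saline array was scanned together with the heroin array of the same number, which allows a difference within a scan. The number of probes detected was 28185 to 33209 on heroin arrays and 30098 to 33835 on saline arrays. Neuronal genes (Snap25, Slc17a7, Gad1) were detected on all arrays.

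All 10 receptor genes were detected on all 11 arrays by at least 1 probe, and 11 of the 14 probes could be tested. The brightest probe of a gene stands for it below. Of the 10 genes, 1 passed the study's thresholds, Chrnb2, with a lower signal in heroin rats, against 2.72% of all tested probes. An unadjusted p under 0.05 was reached by 3 genes, Chrm4, Chrna3 and Chrnb2, against 18.5% of all tested probes. None reached an adjusted p of 0.05 in limma. The values did not separate the groups fully for any receptor gene, while 1.78% of all tested probes had no overlap. The 10 changes were split into 5 above and 5 below zero with a median of 0.06, where 78.7% of all tested probes were above zero and their median was 0.18. After quantile normalization the split was again 5 and 5, but Chrm2, Chrm3, Chrna4 and Chrna5 had the opposite sign.

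**Figure D1:**
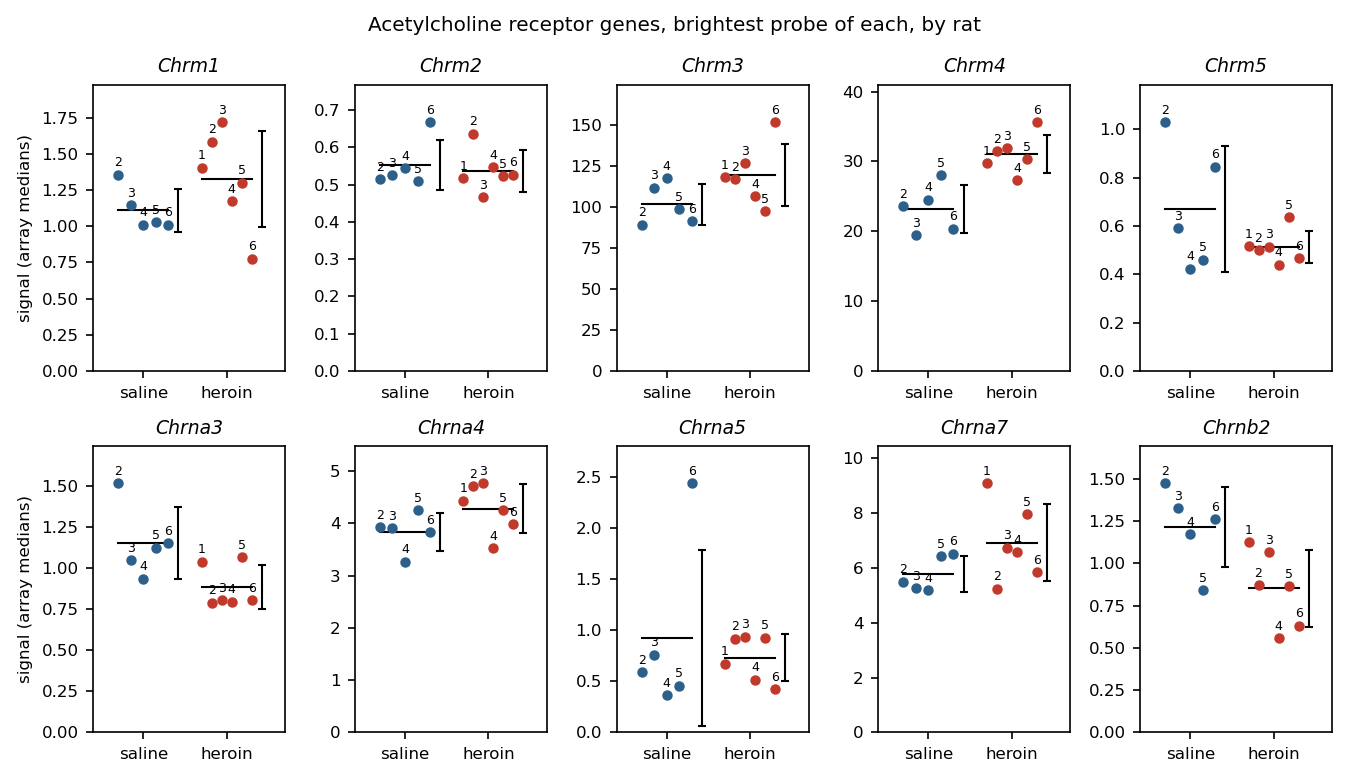
Signal of the brightest probe of each receptor gene in every rat, in array medians on a vertical axis that starts at 0. Each point is 1 rat with its replicate number, horizontal lines are means and bars are 1 SD (6 heroin and 5 saline rats). Chrm4 is higher in all heroin rats than in all saline rats but saline replicate 5, Chrnb2 is lowest in heroin replicates 4 and 6, and saline replicate 6 stands far above the others in Chrna5.

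Among the muscarinic receptors, Chrm4 had the smallest p of all the receptor genes. It encodes M4, a Gi-coupled receptor that lowers cyclic AMP. Its brighter probe gave signals from 27.3 to 35.7 with a median of 30.9 in heroin rats. In saline replicates 2 to 6 it gave 23.6, 19.4, 24.5, 28.0 and 20.4. Only saline replicate 5 reached the lowest heroin value. The means were 31.1 ± 2.76 (SD, n = 6) and 23.2 ± 3.45 (SD, n = 5). The change was 0.43 (SE 0.13), or 1.35-fold, which missed the fold threshold. The limma p was 0.00435 and the adjusted p 0.263. The exact permutation test gave p = 0.00433. The difference within scans was above zero in 5 of 5 pairs, from 0.11 to 0.81.

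The size of the Chrm4 change depended on the scaling. After quantile normalization it was 0.19 (SE 0.10, exact permutation p = 0.0628), and after scaling to the 75th percentile it was 0.21. Neither passed the study's p threshold in limma. The dimmer Chrm4 probe was detected on 10 of 11 arrays, not on heroin replicate 4, and was not among the tested probes. Its signals were 0.0826 to 1.42 with a median of 0.990 in heroin rats. They were 1.07, 0.780, 0.790, 0.497 and 1.16 in saline rats. Without the detection filter its change was -0.36 (SE 0.62), opposite in sign to the brighter probe, and the groups overlapped over their whole range. That change includes the undetected heroin replicate 4, whose deposited signal of 4.75 was set to 5. The median was 0.990 in heroin rats and 0.790 in saline rats, and 3 of 5 scan pairs were above zero. The change of this probe without heroin replicate 4 was not calculated. M4 is abundant in striatal neurons, which lie close to the dissected cortex. The summed signal of the 3 detected striatal markers Drd1a, Adora2a and Ppp1r1b was 4.12 to 6.29 in heroin rats and 4.85 to 8.80 in saline rats (exact p = 0.325, and 0.0368 after quantile normalization). The fourth, Drd2, was detected on 8 of 11 arrays. The sums overlapped between the groups, and their part in the Chrm4 value was not tested.

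Chrm1 encodes M1, the Gq-coupled receptor that is prominent in cortical pyramidal cells. Its brighter probe had signals from 0.776 to 1.72 with a median of 1.35 in heroin rats. The saline rats gave 1.36, 1.14, 1.01, 1.03 and 1.01. The heroin values covered the whole saline range, since heroin replicate 6 was the lowest of all rats and heroin replicate 3 the highest. The change was 0.22 (95% interval -0.17 to 0.61, exact permutation p = 0.288), and 0.37 without heroin replicate 6. The second Chrm1 probe, which lies within a span of 12904 bases by its annotation, had a change of -0.03 (95% interval -0.43 to 0.37).

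Chrm3 encodes M3, also coupled to Gq. Its probe, on chromosome 17, gave 97.5 to 152.1 with a median of 117.7 in heroin rats. The saline rats gave 89.4, 112, 117.6, 98.9 and 91.3. The change of 0.23 (95% interval -0.07 to 0.52, exact permutation p = 0.0887) was close to that of all bright probes, and it was -0.01 after quantile normalization. Within scans 3 of 5 pairs were above zero.

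Chrm2 and Chrm5 were both near the detection limit. M2 is a Gi-coupled receptor that also acts on cholinergic endings, and the mean raw signal of its probe was 2.12 times the lowest signal scored as well above background. Chrm2 ranged from 0.4657 to 0.637 with a median of 0.524 in heroin rats. In saline replicates 2 to 5 it lay between 0.510 and 0.544, and saline replicate 6 gave 0.668. The change was -0.04 (95% interval -0.31 to 0.22), and this interval lay within 1.4-fold in both directions. It became 0.07 after quantile normalization and 0.03 without saline replicate 6. After scaling to the 75th percentile it was -0.26 (SE 0.145). A 95% interval built from that SE extends past 1.4-fold on the lower side, so the bound of 1.4-fold does not hold under that scaling.

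Chrm5 encodes M5, the Gq-coupled receptor best known from dopamine neurons. Its signal lay between 0.440 and 0.635 with a median of 0.507 in heroin rats. The saline rats were more widely spread, at 1.03, 0.590, 0.422, 0.460 and 0.845. Saline replicates 2 and 6 were above every heroin rat and saline replicate 4 was below every one. The change was -0.31 (95% interval -0.76 to 0.14, exact permutation p = 0.247) and -0.24 after quantile normalization. Over the 5 muscarinic genes the median change was 0.22, and 0.07 after quantile normalization.

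**Figure D2:**
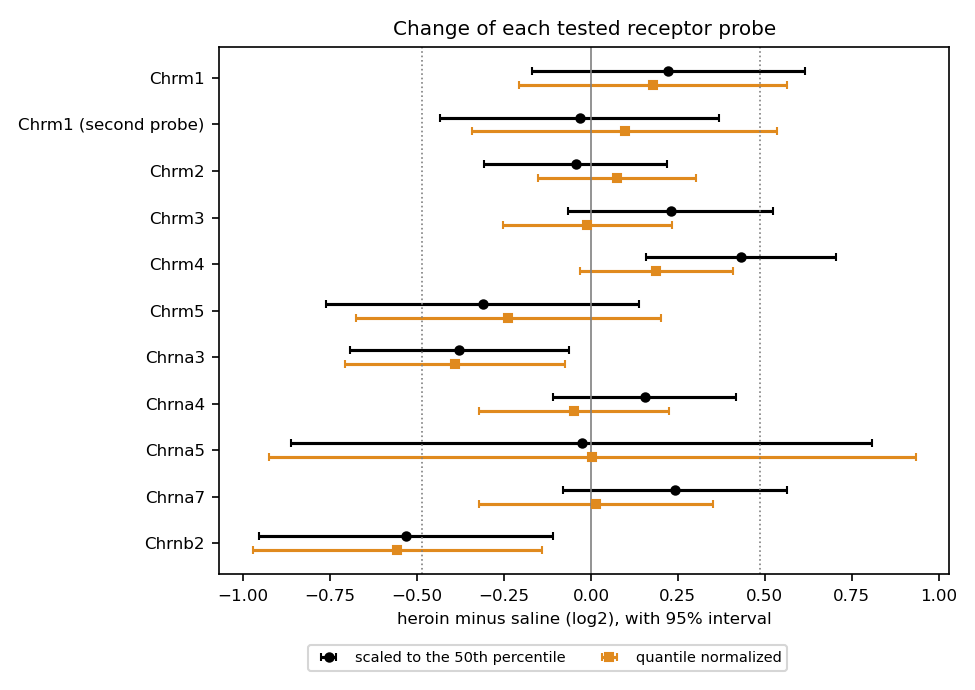
Change of the 11 tested receptor probes, heroin minus saline on the log2 scale, after scaling to the 50th percentile (circles) and after quantile normalization (squares), with 95% intervals from limma; dotted lines mark 1.4-fold. The intervals of Chrna3 and Chrnb2 lie below zero under both scalings, while that of Chrm4 lies above zero only under the first.

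Among the nicotinic subunits, Chrnb2 had the largest change of the receptor genes, and it was the 1 gene past the study's thresholds. Beta2 is the subunit that most high-affinity nicotinic receptors of the brain contain. In heroin replicates the signal was 0.558 to 1.13 with a median of 0.866. In saline replicates 2 to 6 it was 1.47, 1.33, 1.17, 0.841 and 1.26. All saline rats but replicate 5 were above all heroin rats. The means were 0.852 ± 0.226 (SD, n = 6) and 1.21 ± 0.236 (SD, n = 5), and the difference in mean log2 signal made Chrnb2 1.45-fold lower in heroin rats. The change was -0.53 (SE 0.20) with a limma p of 0.0173 and an adjusted p of 0.263. The exact permutation test gave p = 0.0411.

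The direction for Chrnb2 was the same under all 25 alternatives, and the p stayed under 0.05 in each. It passed the study's thresholds in 12 of them. It was -0.56 after quantile normalization and -0.75 after scaling to the 75th percentile, and both passed. It missed the thresholds without heroin replicate 2, 4, 5 or 6 and without saline replicate 2, 3, 4 or 6. It also missed them with the methods' t-test and with the normexp background correction. The same held without a detection filter, with array weights and with the scan as a random block. Over the 11 fits with 1 rat left out the change was -0.66 to -0.42. With the normexp background correction it was -0.27. That correction adds an offset, which pulls the changes of dim probes towards zero, but the part of the offset in this value was not tested. The differences within scans were -0.76, -0.32, -1.07, 0.04 and -0.9979 for replicates 2 to 6, so 4 of 5 pairs were lower in the heroin rat. The mean raw signal was 4.02 times the lowest signal scored as well above background.

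Chrna3 encodes the alpha3 subunit, best known from autonomic ganglia and the habenula. It gave 0.788 to 1.07 with a median of 0.805 in heroin rats. In saline replicates 2 to 6 it gave 1.51, 1.04, 0.933, 1.12 and 1.149. Saline replicate 2 was the highest of all, and 4 of the 6 heroin rats were below every saline rat. The means were 0.883 ± 0.132 (SD, n = 6) and 1.152 ± 0.218 (SD, n = 5). The change was -0.38 (SE 0.15), with a limma p of 0.0221 and an adjusted p of 0.263. The exact permutation test gave p = 0.0260. It missed both thresholds. It was -0.39 after quantile normalization, and -0.60 after scaling to the 75th percentile, where it passed both. Without saline replicate 2 it was -0.28 and with normexp it was -0.14, and in both the unadjusted limma p was over 0.05. All 5 scan pairs were lower in the heroin rat, from -0.94 to -0.07.

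**Figure D3:**
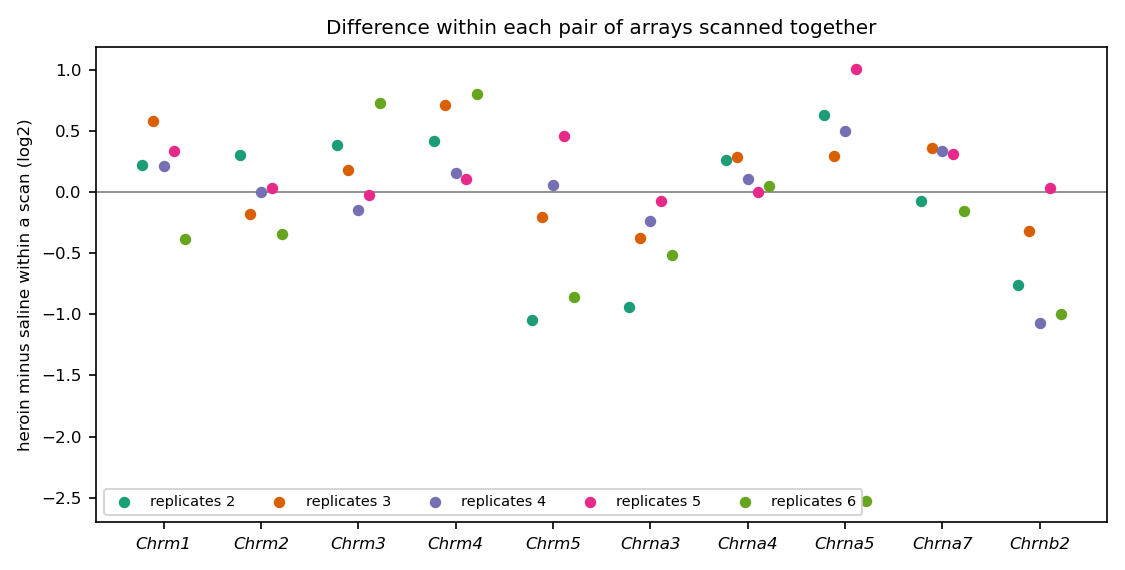
Difference on the log2 scale between the heroin and the saline array that were scanned together, for the brightest probe of each receptor gene; each point is 1 pair, coloured by its replicate number (2 to 6). All 5 points are above zero for Chrm4 and all 5 below zero for Chrna3, and pair 6 of Chrna5 lies at -2.53.

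Chrna5 lies next to Chrna3 in the genome, followed by Chrnb4, and the order Chrna5, Chrna3, Chrnb4 holds in the reference annotation GRCr8. The Chrna5 probe is on the plus strand at chr8:58585098-58585157 in rn3. Alpha5 does not bind acetylcholine by itself but changes the properties of alpha4 beta2 receptors. The signal was 0.423 to 0.938 with a median of 0.795 in heroin rats. The saline rats gave 0.590, 0.762, 0.365, 0.458 and 2.44. Saline replicate 6 alone was above every heroin rat. The change was -0.03 with a wide interval of -0.86 to 0.81. Without saline replicate 6 it was 0.42, and 4 of 5 scan pairs were above zero. Chrnb4, whose probe lies at chr8:58605779-58605838, had a change of -0.18 (SE 0.14), so of the 3 neighbours Chrna3 alone had a p under 0.05. Whether the changes of the neighbours differ was not tested.

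Chrna4 encodes the alpha4 subunit that joins with beta2. It gave 3.52 to 4.76 with a median of 4.34 in heroin rats, and 3.93, 3.90, 3.26, 4.25 and 3.83 in saline rats. The change was 0.15 (95% interval -0.11 to 0.42, exact permutation p = 0.128). It turned to -0.05 after quantile normalization and to -0.06 after scaling to the 75th percentile. The alpha4 and beta2 probes thus had changes of opposite sign after scaling to the 50th percentile but of the same sign under these 2 scalings, and the difference between them was not tested.

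Chrna7 encodes the subunit that forms receptors on its own. The probe A_43_P16274 gave 5.24 to 9.08 with a median of 6.66 in heroin rats. The saline rats gave 5.50, 5.25, 5.19, 6.41 and 6.51. Its 10 spots agreed within an array, with a coefficient of variation of 2.42% to 11.03%. The change was 0.24 (95% interval -0.08 to 0.56, exact permutation p = 0.139) and 0.01 after quantile normalization. The other 2 probes gave no usable level. A_43_P11579 was not well above background on any array, and without the detection filter its change was 1.03 (SE 0.29). A_44_P288142 was well above background on heroin replicate 4 alone, with 0.473 against at most 0.117 on the other arrays. Over the 5 nicotinic genes the median change was -0.03, and -0.05 after quantile normalization.

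The change of a probe was related to its brightness after scaling to the 50th percentile. When the tested probes were divided by mean signal into 5 bins of equal size, the median change was -0.03 in the dimmest bin, then 0.10, 0.20 and 0.24, and 0.24 in the brightest. Chrm4, in the brightest bin, lay above that bin's interquartile range, whose upper end was 0.32. Chrnb2, Chrna3 and Chrm5, all in the dimmest bin, lay below that bin's interquartile range, whose lower end was -0.23. The other 7 tested receptor probes lay within the interquartile range of their own bin. By definition as many probes of a bin lie outside its interquartile range as within it, so 4 receptor probes outside and 7 within is no excess. After quantile normalization the bin medians were between -0.0001 and 0.05, and the same 4 genes were outside the interquartile range in the same directions. In the dimmest bin 4.50% of the probes passed the study's thresholds, and 1.47% in the brightest.

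**Figure D4:**
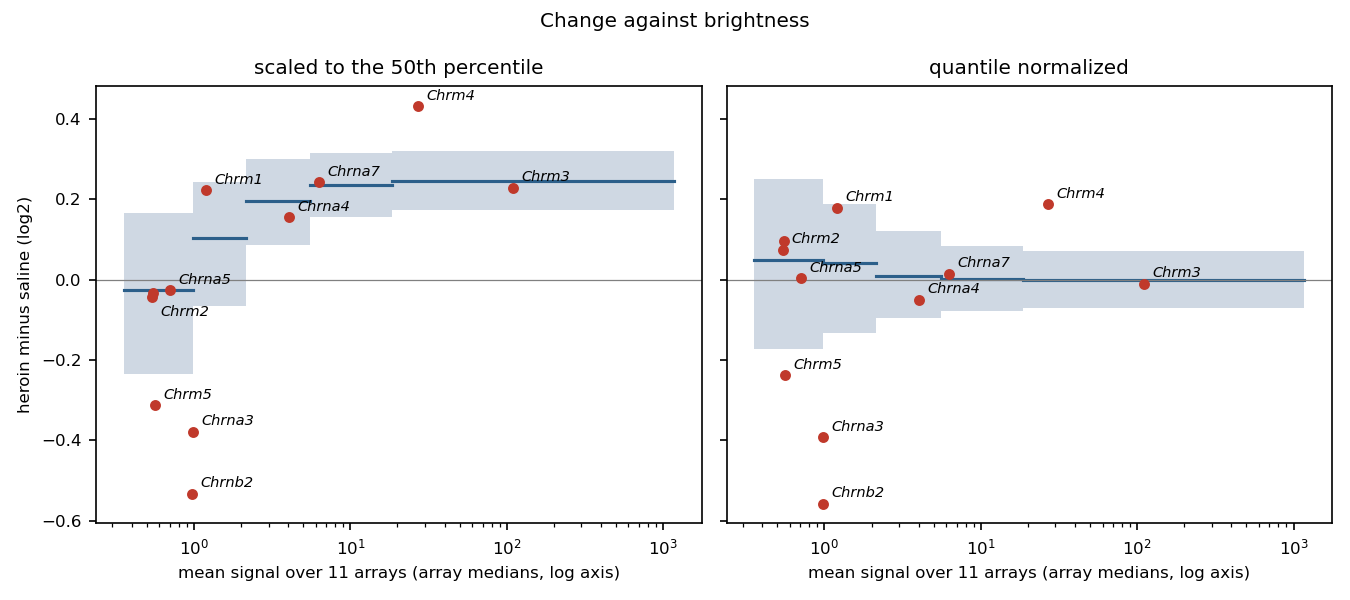
Change on the log2 scale against mean signal (array medians, log axis) for the 11 tested receptor probes (points), over the median (line) and interquartile range (shaded) of all tested probes in 5 bins of mean signal, after each of 2 scalings. Chrm4 lies above the shaded band, and Chrm5, Chrna3 and Chrnb2 lie below it, in both panels. By definition the band leaves out as many of a bin's probes as it holds.

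Between rats, the receptor genes did not vary as 1 group. With group means removed after quantile normalization, the most alike pair was Chrm5 and Chrna3 (Pearson r = 0.83 over 11 rats) and the least alike was Chrm2 and Chrna3 (r = -0.53), out of 45 pairs. The rats share the array and the scaling across genes, and these correlations are descriptive. Saline replicate 2 had the highest signal of both Chrm5 and Chrna3.

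Genes around the receptors were taken from a list of 43 genes of acetylcholine synthesis, other nicotinic subunits, receptor assembly and downstream signalling, of which 42 were on the array and 30 could be tested. Of these, 2 passed the study's thresholds, both higher in heroin rats, and none was lower (2.72% of all tested probes passed). An unadjusted p under 0.05 was reached by 9 of 30, where 18.5% of all tested probes did so. In all, 26 were higher and 4 lower with a median change of 0.22, where 78.7% of all tested probes were higher and their median was 0.18. After quantile normalization 17 were higher and 13 lower with a median of 0.06, where 53.2% of all tested probes were higher. The 2 genes were Kcnq5 and Gnai1. Kcnq5 encodes a subunit of the M current, a potassium current that muscarinic receptors close, and its signal was 49.8 ± 10.7 (SD, n = 6) with heroin and 32.4 ± 9.07 (SD, n = 5) with saline. Its change was 0.64 (SE 0.19). After quantile normalization it was 0.39 and missed both thresholds. Gnai1 encodes a Gi alpha subunit, through which M2 and M4 act, and its change was 0.63 (SE 0.21). After quantile normalization it was 0.51 and still passed both. The values of both genes overlapped between the groups.

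For the transmitter itself, Slc5a7, the choline transporter of cholinergic endings, had a signal of 0.603 ± 0.106 (SD, n = 6) with heroin and 0.441 ± 0.132 (SD, n = 5) with saline. Its change of 0.48 (SE 0.19, exact permutation p = 0.0390) missed both thresholds. After quantile normalization it was 0.65 and passed both, so that the 2 list genes past the thresholds were then Gnai1 and Slc5a7. The mean raw signal of the Slc5a7 probe was 2.08 times the lowest signal scored as well above background, which limits what it can show. Slc18a3, the vesicular acetylcholine transporter, had a change of 0.23 (SE 0.13). Ache, which breaks acetylcholine down, had a change of 0.26 (SE 0.24), and Bche, a related esterase, of -0.11 (SE 0.12). Chat, the enzyme that makes acetylcholine, was detected on 4 of 6 heroin and 5 of 5 saline arrays and was not tested.

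Of the genes for receptor assembly and modulation, 4 were tested and 3 had a p under 0.05, each with a higher signal in heroin rats, against 18.5% of all tested probes with such a p and 78.7% with a higher signal in heroin rats. Tmem35 (a chaperone for alpha7 receptors) had a change of 0.41 (SE 0.13), Lypd1 of 0.45 (SE 0.16) and Ly6h of 0.37 (SE 0.13). The last pair encode proteins of the Ly6 family that bind nicotinic receptors. After quantile normalization the changes were 0.17, 0.27 and 0.13, each with a p over 0.05.

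The other nicotinic subunits were mostly near or below detection. Of 11 on the array, 2 were tested. Chrna9 had an unadjusted limma p under 0.05 and a lower signal in heroin rats, with a change of -0.55 (SE 0.22, exact permutation p = 0.0628), and Chrnb4 is given above. Chrna1, Chrna2, Chrna10 and Chrnb1 were not well above background on any array. Chrnb3 was detected on 1 of 6 heroin and 5 of 5 saline arrays, with signals of 0.136 to 0.313 and 0.316 to 0.470, and was not among the tested probes. Its signals did not overlap between the groups, but they overlapped after quantile normalization. Its mean raw signal was 1.08 times the lowest signal scored as well above background. Among the tested probes, all detected on every array, 1.78% had no overlap. The share among probes as dim as this was not counted.

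**Figure D5:**
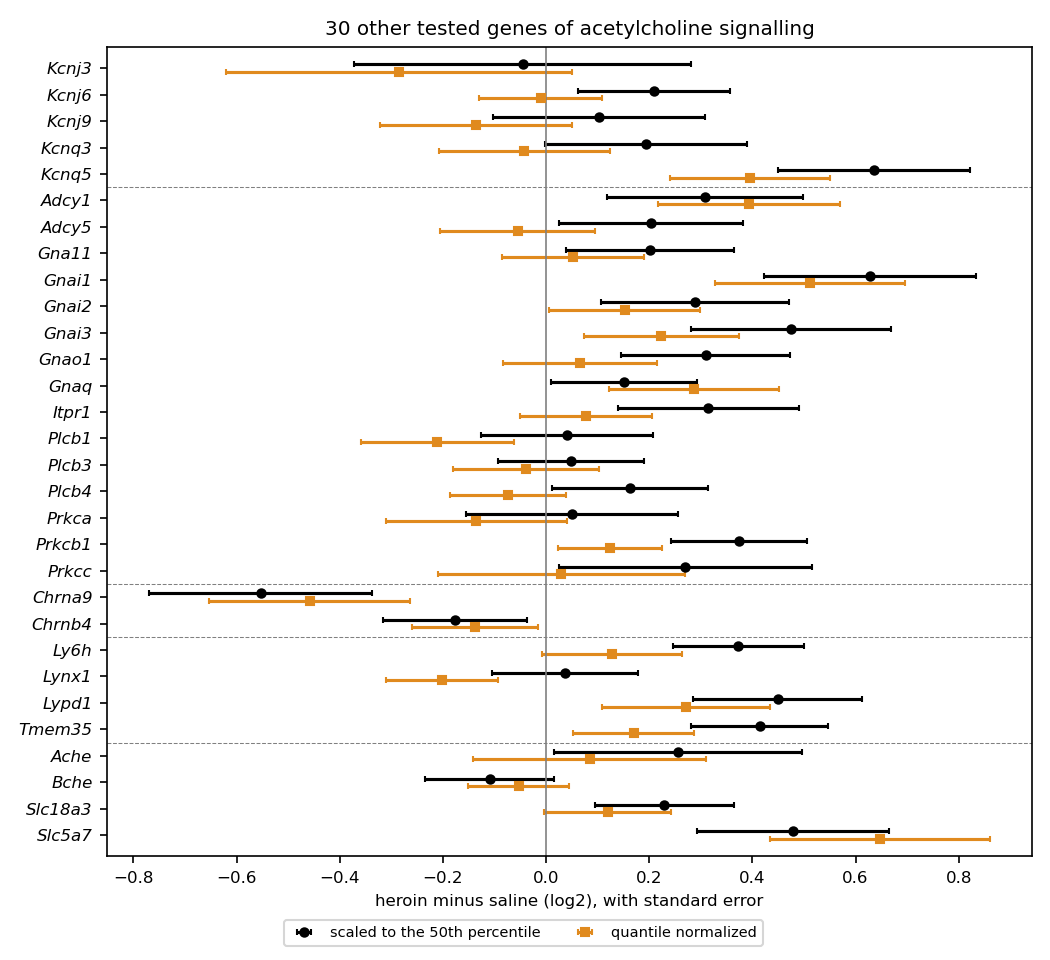
Change of the 30 tested genes around the receptors, heroin minus saline on the log2 scale with limma's standard error, after scaling to the 50th percentile (circles) and after quantile normalization (squares); dashed lines part the groups, from channels at the top over G proteins and effectors, other nicotinic subunits and receptor assembly to synthesis and breakdown. Kcnq5 and Gnai1 lie furthest to the right among the circles and Chrna9 furthest to the left.

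Markers of other cells were set beside these values. The summed signal of the 3 of 5 markers of cholinergic neurons that were detected on all arrays (Lhx8, Slc18a3, Slc5a7) was 3.04 to 3.56 in heroin rats and 2.99 to 3.45 in saline rats (exact p = 0.132, and 0.582 after quantile normalization). The summed genes did not change in the same direction. Lhx8 had a change of -0.39 (SE 0.17), Slc18a3 of 0.23 (SE 0.13) and Slc5a7 of 0.48 (SE 0.19). The summed signal of the interneuron markers Pvalb, Sst and Vip was 277.1 to 390.4 in heroin rats and 220.3 to 303.9 in saline rats (exact p = 0.0260, and 0.680 after quantile normalization). Vip had a change of 0.49 (SE 0.13), Sst of 0.21 (SE 0.17) and Pvalb of 0.16 (SE 0.16). Brighter probes weigh more in each of these sums. The sums for neurons, cortical projection neurons (Bcl11b alone), oligodendrocytes, astrocytes, microglia, endothelium and blood had exact p values from 0.0996 to 0.970. The part of any of these cells in the receptor values was not tested.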

How the data were processed

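Medial prefrontal RNA of 6 heroin and 5 yoked saline rats was measured on 11 single-colour arrays. The methods give 12 arrays, and a further saline array was not analysed here. The authors deposited, per the file headers, spot intensities that Feature Extraction 9.5.1.1 had corrected for background, with flags for other spot properties, such as marked spots and detection. A further deposited table holds each probe's ratio to its own median, which was used as an alternative.

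Intensities below 5 were set to 5, marked spots (99 to 231 per array) were left out, log2 was taken, spots of a probe were averaged, and each array's 50th percentile over non-control probes was subtracted. Detection required that at least 0.5 of a probe's spots be well above background. Probes detected on all 11 arrays, with at least 2 usable arrays per group, were tested with limma (version 3.58.1 in R 4.3.3, lmFit and eBayes) and adjusted by Benjamini-Hochberg over 25555 probes. Exact permutation tests were two-sided. A gene's brightest probe over all arrays stood for it. The number of arrays limits the precision.

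All 10 receptors and every probe of them are named, with the list genes past both thresholds and Slc5a7, Slc18a3, Ache, Bche and Chat. Other list genes (Tmem35, Lypd1, Ly6h, the nicotinic subunits) were named after their values were seen. The genes, lists and tests were chosen with earlier results of these data known. The striatal, cholinergic, interneuron and other marker lists were described by summed signal. Probe positions are in rn3 as the array files give them. The fits were tested on simulated data. Alternatives were other scalings, background correction, floor order, the authors' relative values, marked spots, detection filters, the methods' t-test, trend and robust options, array weights, blocks and leaving out each rat.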

Additional observations from a re-analysis of the deposited data

Results flagged for a closer look

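Chrm2 in saline replicate 6 stood apart from the other saline rats. Its signal was 0.668 array medians and the nearest other saline rat gave 0.544, a gap of 0.764 of the group's whole range on the log2 scale (n = 5). In all, 20 groups of values (10 genes in 2 treatments) were looked at in this way, and chance marks about 1 in 20. The Chrm2 probe is near the detection limit. The same rat had the highest Chrna5 signal, 2.44 array medians, which was not far enough from the others to be marked by the same measure. What sets this array apart in these genes was not tested.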

How the results depend on the processing

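Of the 10 receptor genes, 1 passed the study's thresholds. The number was 2 after scaling to the 75th percentile, and 0 with normexp, without a detection filter, with the methods' t-test, with array weights or with the scan as a random block. It was 0 to 2 with 1 rat left out. The number of receptor probes past the thresholds was also 1, with 2 after scaling to the 75th percentile, 0 with normexp, the methods' t-test, array weights and the random scan block, and 0 to 2 with 1 rat left out. Without a detection filter it was 1, and that probe was not the Chrnb2 probe but A_43_P11579 of Chrna7, well above background on no array. No receptor probe passed an adjusted p of 0.05 except 1, Chrm4, with array weights, where 7862 of all probes passed. Of the cholinergic list, 2 genes passed the study's thresholds, and 1 with scaling to the 75th percentile, normexp, the methods' t-test or the mean of a gene's probes, 3 without a filter or with detection in 1 group, 8 with array weights, 5 with the replicate block, and 1 to 7 with 1 rat left out. Over all probes, 694 passed, 126 with normexp, 308 by the methods' t-test, 2380 with array weights, 1560 without a filter, 457 after quantile normalization and 2352 without saline replicate 5. Signs turned for Chrna4 (-0.063 at the 75th percentile, -0.050 by quantile normalization), and by quantile normalization for Chrm2 (0.074), Chrm3 (-0.010) and Chrna5 (0.0041). With 1 rat left out, Chrm2 ranged from -0.095 to 0.027, turning without saline replicate 6, and Chrna5 from -0.27 to 0.42, turning without heroin replicate 4 or 6 or saline replicate 6. The causes were not tested. Same-numbered arrays were scanned together, but their deviations correlated unevenly (r = 0.38, -0.13, 0.35, 0.02 and -0.24 for replicates 2 to 6), and 2 of 5 saline arrays correlated best with their own number. With the replicate block Chrnb2 was -0.62, Chrna3 -0.43 and Chrm4 0.44, each with a limma p under 0.05, and the number of receptor genes past the thresholds stayed at 1. Chrm2, Chrm5 and the second Chrm1 probe lay within 2.12 to 2.31 times the lowest signal well above background, which limits what they can show.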
